A study of Homo sapiens with 12 samples.

Results

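The control naive transcriptome was read from the 3 siNC libraries of the 12 libraries in the study, chosen by their labels alone. They were made from H9 human embryonic stem cells, an established cell line labelled wild type, that received a control siRNA (siNC). The cells grew in PXGL, a naive-state culture of N2B27 medium with the MEK inhibitor PD0325901, the tankyrase inhibitor XAV939, the protein kinase C inhibitor Gö6983 and human LIF at 10 ng/mL, on a layer of mouse embryonic fibroblasts (MEF). The other 9 libraries, in groups of 3 labelled siOGA, siP300 and siP300+OGA, were not used. Separate cultures are not stated for the 3 libraries, so every SD below measures the spread between 3 libraries, which may be technical.

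Naive human pluripotent cells are kept in culture in a state that resembles the epiblast of the embryo before implantation, whereas primed cells resemble the epiblast after it. Both states use POU5F1, SOX2 and NANOG, the core factors of pluripotency. The naive state is known for KLF17, DPPA3, DPPA5, DNMT3L and SUSD2, and the primed state for ZIC2, SFRP2, THY1 and DUSP6.

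The values are FPKM, fragments per kilobase of gene, scaled to library size, for 62753 genes. The reads behind the values summed to 17867613, 17250866 and 16834847 in replicates 1, 2 and 3, and values listed below in threes keep that order. At 1 FPKM the median gene had 45, 42 and 38 reads in those libraries. A mean of 1 FPKM was used as the line for a measurable level, and 29367 genes were listed at 0 in all 3 libraries.

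In total 12924 genes reached a mean of 1 FPKM, 20.6% of those listed. Of these, 4240 reached 10 FPKM, 278 reached 100 FPKM and 14 reached 1000 FPKM. The median over the genes at or above 1 FPKM was 5.63 FPKM. Among nuclear protein-coding genes, 10607 of 20056 (52.9%) reached 1 FPKM, and the median over all 20056 was 1.35 FPKM. The line at 1 FPKM was not a gap. ACSL1, a fatty acid acyl-CoA ligase, and SYCP2, a protein of the meiotic synaptonemal complex, lay just above it at 1.00 ± 0.15 and 1.00 ± 0.067 FPKM (SD, n = 3). RABL2A, a small GTPase, and the lncRNA NIHCOLE lay just below it among genes with a unique symbol, at 1.00 ± 0.16 and 1.00 ± 0.15 FPKM after rounding. In 872 of the 12924 genes at least 1 library was under the line.

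**Figure D1:**
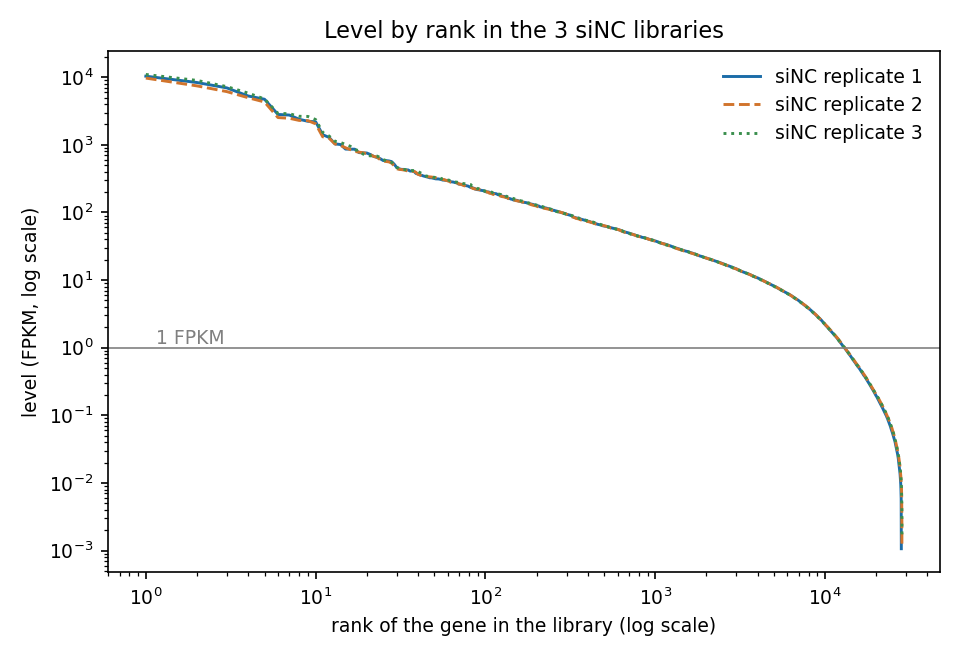
Level of each gene in FPKM (vertical, log scale) against its rank within the library (horizontal, log scale), with a line for each of the 3 siNC libraries and a grey line at 1 FPKM. The 3 curves lie on each other below the highest ranks, and cross 1 FPKM at 12979 to 13030 genes.

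A small set of genes held much of the total. The 10 highest genes held 19.3%, 18.1% and 20.2% of summed FPKM, and the 100 highest held 33.8%, 32.7% and 34.9%. The 10 highest were all mitochondrial. Among nuclear genes alone, the 10 highest held 4.20%, 4.20% and 4.18% and the 100 highest 17.6%, 17.5% and 17.8%.

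The 37 genes of the mitochondrial genome held 21.4 ± 1.18% of summed FPKM (SD, n = 3), but 5.63 ± 0.376% of reads. MT-CO1, the catalytic subunit of cytochrome c oxidase, had 10361, 9713 and 10985 FPKM and was the highest gene of all. MT-CO2 had 8351, 7447 and 8969 FPKM, and MT-ND4, a subunit of complex I, had 6953, 6128 and 7258 FPKM. All 13 mitochondrial protein-coding genes were above 1 FPKM, and 12 were above 100 FPKM. MT-ATP8, a subunit of ATP synthase whose reading frame overlaps that of MT-ATP6, was the exception at 16.8, 17.9 and 11.8 FPKM. MT-ND3 was 768, 742 and 1130 FPKM and the small ribosomal RNA MT-RNR1 was 277, 424 and 450 FPKM. MT-ND3 and MT-RNR1 thus had CVs (SD over mean) of 24.6% and 24.3%, with replicate 3 high for the first and replicate 1 low for the second.

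The highest nuclear genes were chaperones, translation factors, ribosomal proteins and, among them, several genes of early development. HSP90AB1, a cytosolic chaperone, had 1033, 1029 and 1085 FPKM, and EEF1A1, which brings aminoacyl-tRNA to the ribosome, had 1012, 982 and 1015 FPKM. No other nuclear gene reached 1000 FPKM. RPS12 of the small ribosomal subunit had 865, 780 and 952 FPKM and EEF2, the translocation factor, had 862, 905 and 822 FPKM. NLRP7, a maternal-effect gene whose loss is known to cause hydatidiform mole, came next with 864, 851 and 848 FPKM. It was the fifth nuclear gene, and its range overlapped those of RPS12 and EEF2.

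HMGA1, an architectural chromatin protein, had 757, 800 and 732 FPKM. Then came RPS2 at 735 ± 46.9, the glycolytic enzyme GAPDH at 708 ± 16.8, the chaperone HSP90AA1 at 677 ± 18.6 and the peroxiredoxin PRDX1 at 670 ± 17.7 FPKM (SD, n = 3 each). The actins ACTB and ACTG1 were at 590 ± 11.6 and 579 ± 9.93 FPKM. DPPA5, an RNA-binding protein of early embryos, stood with them at 565, 560 and 605 FPKM. POU5F1, the 17th nuclear gene, had 443, 444 and 403 FPKM, about the level of the glycolytic enzyme ENO1 at 434, 434 and 421 FPKM. The remaining genes of the top 25 were RPL8, RPS18, RPLP0, FTL, TUBB, RPS4X, RPL10A, ATP5F1B, PTMA and RPL7A, between 566 and 374 FPKM. Ribosomal proteins made up 8 of the 25. In the order of the 25, 17 of 24 neighbouring genes had ranges that overlapped, so most adjacent places could not be told apart.

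Protein-coding genes gave 92.0 ± 0.179% of summed FPKM and 97.0 ± 0.0425% of reads (SD, n = 3). They were 10620 of the 12924 genes at or above 1 FPKM (82.2%). Long noncoding RNAs (lncRNAs) were 8.91% of those genes, 1152 of them, but held 2.50 ± 0.0572% of summed FPKM. Processed pseudogenes, copies of spliced mRNAs in the genome, were 482 genes with 2.23 ± 0.0194% of summed FPKM and 0.355 ± 0.00144% of reads. Small RNA classes together, mitochondrial transfer RNAs included, held 1.31% of summed FPKM and 0.0304% of reads. The mitochondrial transfer RNAs alone held 0.574 ± 0.0277% of summed FPKM, which is also part of the mitochondrial share above. FPKM weights short genes up, and genes with a listed length under 300 bases held 2.92 ± 0.0739% of summed FPKM on 0.136 ± 0.00543% of reads.

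**Figure D2:**
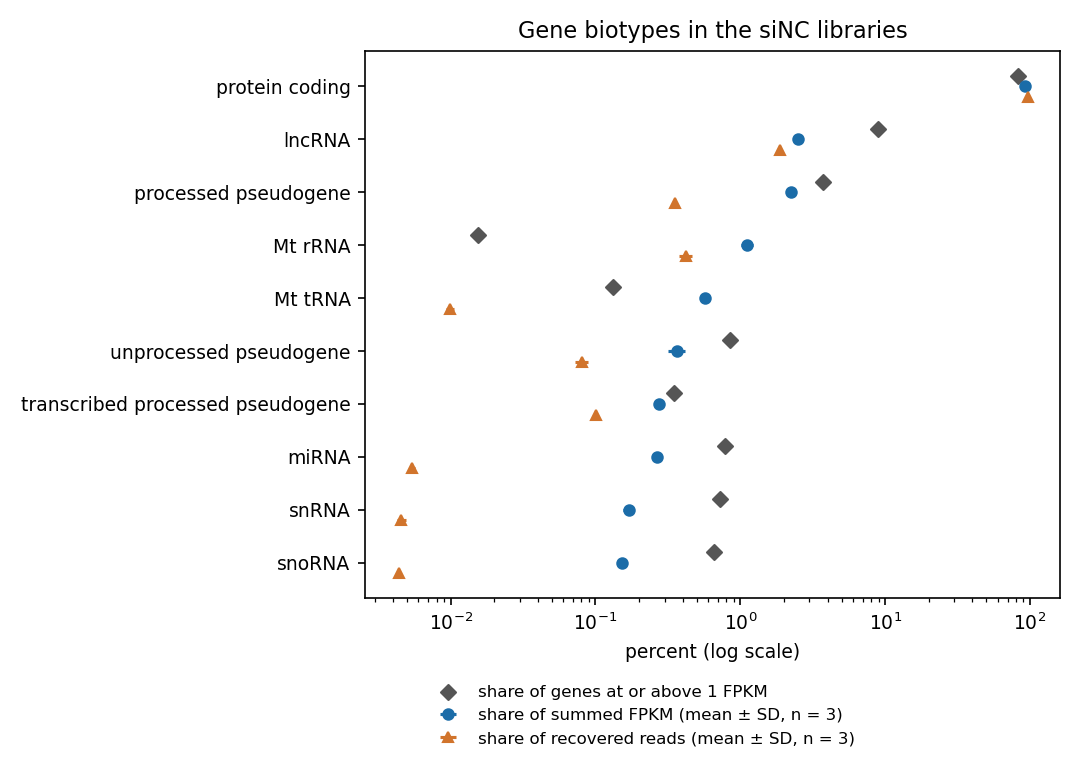
Shares of the 10 gene biotypes with the most FPKM (percent, log scale) as genes at or above 1 FPKM (diamonds), summed FPKM (circles) and recovered reads (triangles), with mean ± SD over the 3 siNC libraries for the last pair of measures. Protein-coding genes lead in all 3 measures, and for miRNA, snRNA, snoRNA and Mt tRNA genes the share of FPKM lies far above the share of reads.

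The highest lncRNAs were a pair listed by ID only, ENSG00000256969 at 293 ± 3.56 and ENSG00000254339 at 185 ± 4.43 FPKM (SD, n = 3 each). Among lncRNAs with a symbol, LINC02582 was the highest, with 108, 106 and 111 FPKM. SNHG1, a host gene of small nucleolar RNAs, was at 72.6 ± 2.21, NORAD, which binds PUMILIO proteins, at 65.3 ± 2.37, and MEG3, a maternally expressed imprinted RNA, at 62.3 ± 2.30 FPKM (SD, n = 3 each). ESRG, a primate RNA of pluripotent cells that derives from the endogenous retrovirus HERVH, had 50.8, 51.0 and 50.9 FPKM. Its CV of 0.167% was among the 10 lowest of the 4240 genes at or above 10 FPKM. GAS5 followed at 30.8, PCAT14 at 21.9, FGD5-AS1 at 21.2, ANKRD10-IT1 at 21.2 and OIP5-AS1 at 19.3 FPKM. MALAT1 and H19, abundant in many tissues, were at 0.801 ± 0.103 and 0.412 ± 0.0406 FPKM. The libraries were made from poly(A)-selected RNA, and whether that bears on these levels was not tested. LINC-ROR, described in reprogrammed pluripotent cells, was at 0.590 ± 0.124 FPKM.

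The highest genes of other biotypes included copies of abundant genes. RPS2P5, a copy of RPS2, had 326 ± 13.4 FPKM, RPL39P3 209 FPKM and RPS28P7 197 FPKM. RPL39P3 and RPS28P7, of 156 and 210 bases, were listed above their parents RPL39 and RPS28, at 101 and 67.3 FPKM. These copies held fewer reads, 582 and 740 in replicate 1, against 3555 and 2216 for the longer parents. The highest miRNA gene was MIR1244-2, with 64.7, 65.4 and 103 FPKM on a gene of 85 bases. Ribosomal protein pseudogenes, 104 of 1600 at or above 1 FPKM, held 1.10 ± 0.0103% of summed FPKM. Copies differed in how much of the parent they hold unchanged. Of all 150-base stretches (the read length) in the GENCODE 29 transcript of RPS2P5, 17.7% stood unchanged in RPS2 transcripts, and the share was 51.6% for EEF1A1P5 in EEF1A1 and 0% for RPL10AP6 in RPL10A and FTLP14 in FTL. RPL39P3 and RPS28P7 were not compared in this way. Of all 50-base stretches, 57.1% stood unchanged in the parent for RPS2P5, 85.1% for EEF1A1P5, 32.5% for RPL10AP6 and 0% for FTLP14. The counting of reads that match several places is not stated. The split between copy and parent is therefore uncertain, most of all where these shares are high.

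Among pluripotency genes this limit applies most to NANOG and PHC1. NANOGP8, a retrogene listed as protein-coding, had 53.6, 49.2 and 63.3 FPKM, and NANOG had 41.8, 41.4 and 49.4 FPKM. The ranges overlapped by a narrow margin, though NANOGP8 was listed above NANOG in every library. Of the 150-base stretches of NANOGP8, 29% stood in NANOG transcripts. For PHC1P1, at 10.1 FPKM, 75.9% stood in transcripts of PHC1, a Polycomb protein. The share was 0% for DPPA3P1, 3.34% for POU5F1P3 and 7.69% for TDGF1P3. For stretches of 50 bases it was 19.5%, 41.2% and 37.7% in these copies, against 71.6% for NANOGP8 and 91.0% for PHC1P1. DPPA3P1 was at 10.8 ± 3.11, NANOGP1 at 9.07 ± 3.21, POU5F1P3 at 6.57 ± 2.28 and TDGF1P3 at 6.03 ± 0.625 FPKM. As listed, each of these 4 was well under its parent gene. NANOGP1 shares its strand with an overlapping gene model listed at 17.2 FPKM, so its level is uncertain. Its stretches were not compared with those of NANOG.

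The label was set beside marker lists, which were chosen with earlier results of these data known. All 20 core pluripotency genes on the list were at or above 1 FPKM, with a median of 68.8 FPKM, against a median of 1.35 FPKM for all nuclear protein-coding genes. Of 33 naive-state genes 29 were at or above 1 FPKM, with a median of 25.1 FPKM, and of 28 primed-state genes 16, with a median of 2.58 FPKM. The primed share was near the 52.9% of all nuclear protein-coding genes. The lists of other cell types had medians from 0.0146 to 0.956 FPKM. In bulk RNA, fewer cells of a type and less RNA per cell cannot be told apart.

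**Figure D3:**
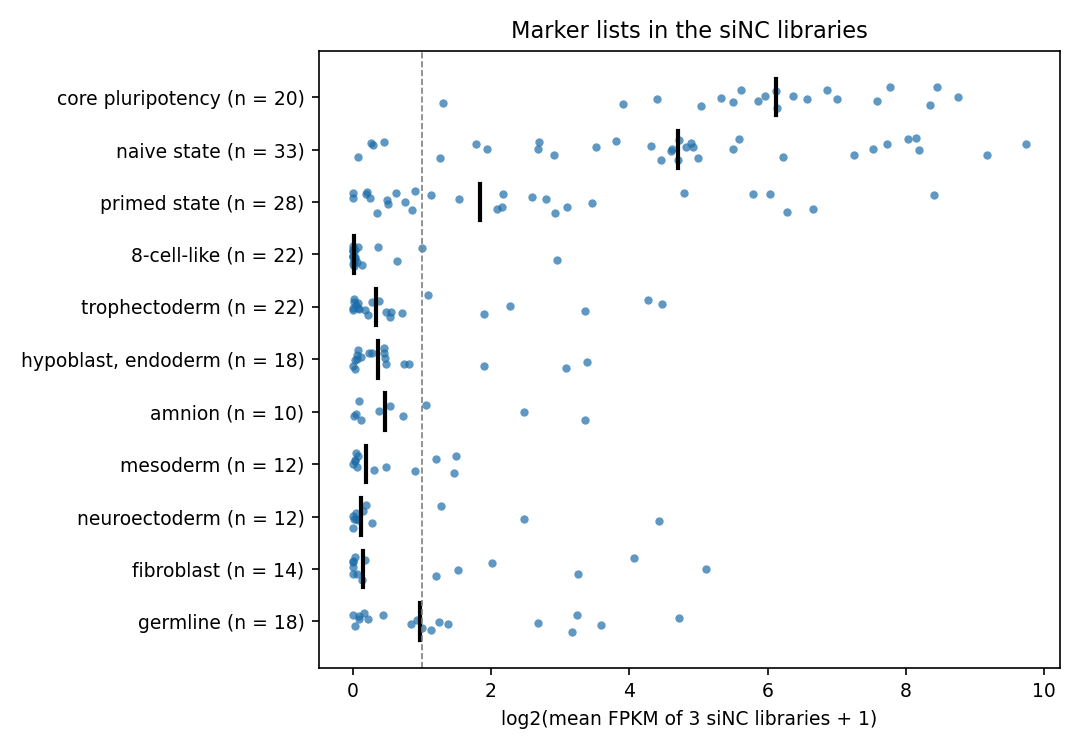
Each point is a gene, placed at log2(mean FPKM of the 3 siNC libraries + 1), in rows of 11 marker lists, with a black bar at the list's median and a dashed line at 1 FPKM. The core and naive lists lie highest, the primed list spreads over the whole range, and most members of the other lists lie under 1 FPKM.

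The core genes covered a wide range of levels. POU5F1 (chromosome 6) and SOX2, which bind DNA together, had means of 430 and 93.9 FPKM, and NANOG (chromosome 12) 44.2 FPKM. The NODAL co-receptor TDGF1 had 361, 340 and 352 FPKM. LIN28A and LIN28B, RNA-binding proteins that block the maturation of let-7, had 317, 332 and 326 FPKM and 127, 126 and 131 FPKM. DPPA4 had 216, 208 and 225 FPKM and 19.6, 20.9 and 20.03 FPKM were listed for its neighbour and partner DPPA2. PRDM14, a repressor of differentiation genes in germ and pluripotent cells, had 117, 114 and 114 FPKM. The lowest were TERF1, a telomere-binding protein, at 14.1 ± 0.291, and FOXD3 at 1.47 ± 0.485 FPKM. The libraries separated most of these genes: in the order of 20, ranges overlapped for only 3 of 19 neighbouring pairs. FOXD3 was the member with the largest CV, 33.0%, with replicate 1 at 2.02 FPKM above replicates 2 and 3 at 1.27 and 1.11 FPKM.

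The naive genes were led by NLRP7 and DPPA5, followed by DPPA3, which protects the maternal genome from demethylation in the mouse, with 296, 270 and 307 FPKM. DNMT3L, the cofactor of de novo DNA methyltransferases, had 284, 298 and 268 FPKM. NLRP2, the neighbour of NLRP7, had 261, 262 and 259 FPKM. The genes of NLRP7 and NLRP2 overlap on opposite strands, and the strand used in counting is not stated, so reads in the overlap may be shared. The placental-type alkaline phosphatase ALPG had 212, 216 and 206 FPKM, and FGF4, a growth factor of the epiblast, 182, 180 and 189 FPKM. KHDC3L, a partner of NLRP proteins in the oocyte, was at 74.0 ± 1.92 FPKM, and SUSD2, the surface marker used to sort naive cells, at 47.4, 48.9 and 45.4 FPKM.

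The naive transcription factors sat lower. TFAP2C was at 29.8, 30.3 and 32.2 FPKM, KLF4 at 28.1, 29.8 and 28.3, TFCP2L1 at 23.1, 24.6 and 23.2, KLF5 at 22.8, 23.1 and 24.2, and KLF17 at 19.3, 18.98 and 18.6 FPKM. In this group the ranges of TFAP2C and KLF4 overlapped, as did those of TFCP2L1 and KLF5, and KLF17 was below the rest in every library. VENTX was at 29.4 ± 0.610 and the zinc finger genes ZNF729, ZNF600 and ZNF534 at 44.2, 20.9 and 2.85 FPKM. The 4 members under 1 FPKM were TBX3 at 0.368, KCNN4 at 0.227, PRAP1 at 0.203 and ESRRB at 0.0538 FPKM. ESRRB and TBX3 are naive factors known from the mouse. Ranges overlapped for 13 of the 32 neighbouring pairs in the order of the 33 genes.

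**Figure D4:**
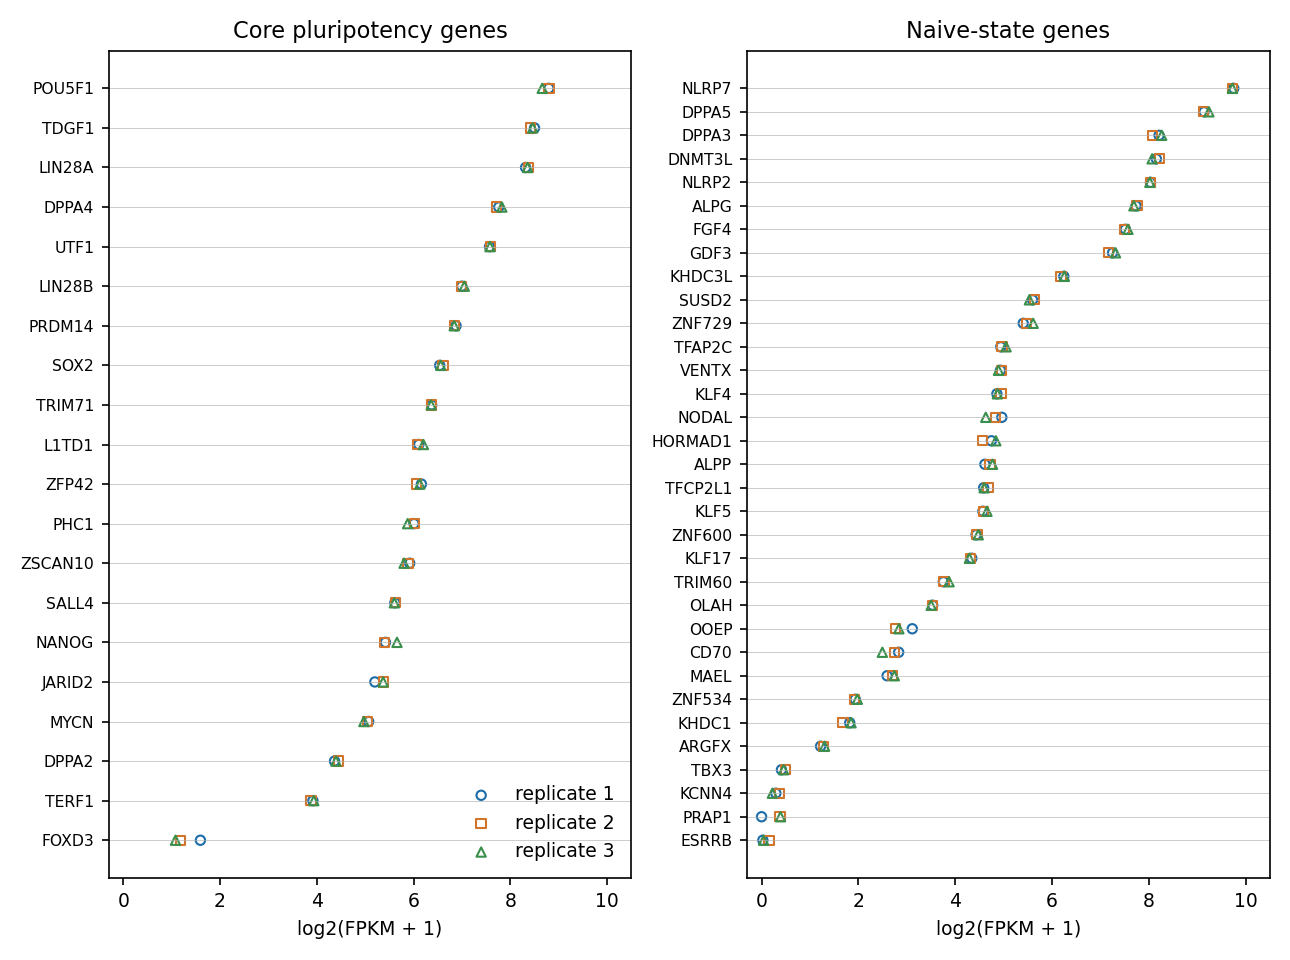
Values of the 20 core pluripotency genes (left) and 33 naive-state genes (right) as log2(FPKM + 1), with a symbol for each of the 3 siNC libraries. The symbols of a gene mostly cover each other, and the gaps between libraries widen for low genes such as FOXD3 and OOEP.

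The bases ahead of the start are shown for 4 such genes, chosen because their levels are high or they mark the state, they have 1 listed start, and the window touches no exon of GENCODE 29. They are the 250 bases before the RefSeq start on GRCh38.p14, 5′ to 3′ on the gene's strand, with GGGCGG or its reverse complement CCGCCC (the GC box bound by SP1-type factors) in capitals. TATAAA or its reverse complement TTTATA was searched too and was in none of the 4. The windows are chr12:7711183-7711432 for DPPA3, chr10:133229967-133230216 for UTF1, chr6:73362408-73362657 for KHDC3L and chr1:44118571-44118820 for KLF17, all on the plus strand.
DPPA3: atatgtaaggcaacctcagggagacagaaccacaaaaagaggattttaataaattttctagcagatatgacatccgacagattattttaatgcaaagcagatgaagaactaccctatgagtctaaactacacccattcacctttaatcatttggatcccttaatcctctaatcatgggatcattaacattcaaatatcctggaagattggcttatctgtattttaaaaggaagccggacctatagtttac
UTF1: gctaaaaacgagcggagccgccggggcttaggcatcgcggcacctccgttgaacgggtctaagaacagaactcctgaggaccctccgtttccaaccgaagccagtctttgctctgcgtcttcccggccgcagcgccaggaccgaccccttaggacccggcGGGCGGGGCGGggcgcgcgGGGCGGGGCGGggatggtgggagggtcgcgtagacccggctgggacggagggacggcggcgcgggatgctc
KHDC3L: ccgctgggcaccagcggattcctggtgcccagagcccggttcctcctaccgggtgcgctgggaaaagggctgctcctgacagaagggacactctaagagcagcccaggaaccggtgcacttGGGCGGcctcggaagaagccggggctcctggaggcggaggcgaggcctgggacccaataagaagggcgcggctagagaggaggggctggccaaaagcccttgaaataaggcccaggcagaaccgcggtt
KLF17: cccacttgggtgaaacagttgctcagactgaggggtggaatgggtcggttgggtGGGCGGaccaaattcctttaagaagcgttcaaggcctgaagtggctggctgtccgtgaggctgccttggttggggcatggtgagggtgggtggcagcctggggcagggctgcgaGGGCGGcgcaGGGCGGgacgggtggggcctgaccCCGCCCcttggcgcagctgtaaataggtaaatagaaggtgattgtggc

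These windows differ widely in base composition. That of DPPA3 (291 ± 18.9 FPKM) was 35.6% G and C with 2 CpG and no match, and that of UTF1 (190 ± 0.862 FPKM), a chromatin factor of pluripotent cells, was 70.8% with 32 CpG and 4 matches, which share a base in pairs. KHDC3L had 65.6%, 15 CpG and 1 match, and KLF17 62.8%, 11 CpG and 4 matches.

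Across genes, the same windows followed the level classes. RefSeq windows were matched for 15315 of the 18689 nuclear protein-coding genes that have a unique symbol and lie on a chromosome of the RefSeq table used (81.9%), with the most upstream start where several were listed. Their median G and C content was 47.2% for 1812 genes listed at 0 in all 3 libraries, 60.0% for 4802 genes above 0 and under 1 FPKM, 65.6% for 5340 genes at 1 to 10 FPKM, 65.2% for 3162 at 10 to 100 FPKM and 63.6% for 199 at 100 FPKM or more. A CpG count of at least 0.6 times that given by base composition was found in 15.2%, 47.0%, 80.4%, 88.7% and 88.4% of these classes. GGGCGG on either strand was in 56.5% of all matched windows and in 17.3%, 46.8%, 69.1%, 71.6% and 72.4% of the classes. TATAAA on either strand was in 9.34% of all and in 26.8%, 10.8%, 5.06%, 4.27% and 9.55%. The 20 matched naive-state genes had a CpG ratio of at least 0.6 in 40%, below every class at or above 1 FPKM, and the 14 matched core genes in 64.3%. These are descriptions across genes, which are not independent, with no test.

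The primed list was split. DNMT3B, the de novo DNA methyltransferase, had 342, 346 and 325 FPKM and was the 45th gene of all. PODXL, which carries the TRA-1-60 and TRA-1-81 epitopes, had 97.8, 104 and 98.7 FPKM, CD24 had 79.4, 72.4 and 78.9, VCAN 64.4, 63.9 and 64.9, and GPC4 54.1, 52.3 and 56.9 FPKM. These values lay within the range of the naive list. OTX2, a factor of the primed epiblast and forebrain, was at 3.51 ± 0.294, and SOX11 at 1.19 ± 0.00746 FPKM. The other end of the list held VIM at 0.863, SFRP2 at 0.812, ZIC2 at 0.680, CDH2 at 0.414 and THY1 at 0.277 FPKM. DUSP6, an ERK target, and HMX2 were listed at 0 in all 3 libraries, where 3 reads in a library would give 0.0452 and 0.108 FPKM.

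Most markers of other embryonic states were under 1 FPKM. Of 22 8-cell-like genes only CCNA1, at 6.75 ± 0.796 FPKM, was clearly above 1 FPKM. ZNF280A was at 1.01 ± 0.354 FPKM and fell under the line when replicate 1 or replicate 3 was left out. ZSCAN4 was at 0, 0 and 0.0777 FPKM, and DUXA, DUX4 and TRIM43 were listed at 0. Of 22 trophectoderm genes 6 reached 1 FPKM. They included the simple-epithelium keratins KRT8 at 21.3 ± 1.45 and KRT18 at 18.3 ± 0.919 FPKM, with KRT19 at 9.29, SLC7A2 at 2.71 and CGA at 1.14 FPKM. The lineage factors GATA3, CDX2 and TFAP2A were at 0.301, 0.0593 and 0.0321 FPKM, and ELF5 was listed at 0.

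Of 18 hypoblast and endoderm genes the 3 above 1 FPKM encode basement membrane proteins: LAMA1 at 9.51 ± 0.247, LAMB1 at 7.44 ± 0.158 and COL4A1 at 2.72 ± 0.125 FPKM. GATA4, GATA6 and SOX17, the factors that define this lineage, were at 0.176, 0.0895 and 0.0400 FPKM. Of 10 amnion genes 3 passed, the signalling genes BAMBI at 9.22 and BMP4 at 4.59 and the growth factor-binding protein IGFBP3 at 1.08 FPKM, with ISL1 at 0.651 and GABRP at 0.0164 FPKM. Of 12 mesoderm genes KDR, TWIST1 and TBX6 were at 1.80, 1.76 and 1.29 FPKM, and TBXT, the primitive streak factor, at 0.0507 FPKM. Of 12 neuroectoderm genes NES, an intermediate filament gene, was at 20.5 ± 1.07 and DLK1 at 4.58 FPKM, while PAX6 and SOX1 were at 0.000906 and 0.0126 FPKM.

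The cells grew on mouse feeder fibroblasts, so fibroblast genes were read as well. Of 14 such human genes 6 were at or above 1 FPKM, against 52.9% of all nuclear protein-coding genes. COL6A1 was at 33.5 ± 2.54, FN1 at 15.7 ± 0.315, CCN2 at 8.56 and COL1A2 at 3.05 FPKM. COL1A1 and COL5A1 came next, under 2 FPKM. Of the members under 1 FPKM, COL3A1, POSTN and DCN were at 0.127, 0.0270 and 0.00723 FPKM, and LUM and FAP were listed at 0. The summed level of the list was 66.1, 66.5 and 60.2 FPKM. Whether mouse reads were mapped to human genes was not tested.

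Of 18 germline genes 9 were at or above 1 FPKM, a share near the 52.9% of all nuclear protein-coding genes, and the median was 0.956 FPKM. HORMAD1 and SYCP3, proteins of meiotic chromosome axes, were at 25.9, 22.8 and 27.7 FPKM and 10.7, 11.2 and 11.5 FPKM. MAGEB2 was at 8.46, GTSF1, a cofactor of PIWI proteins, at 7.98, and MAEL, a piRNA pathway protein, at 5.41 FPKM. The germ cell markers DDX4 and DAZL were at 0.124 and 0.0260 FPKM.

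The table assigns 1569 genes to 71 transcription factor families. Of these 899 reached 1 FPKM, 193 reached 10 FPKM and 9 reached 100 FPKM. For the 20056 nuclear protein-coding genes the counts were 10607, 4015 and 246. The median was 1.61 FPKM for the 1569 genes and 1.35 FPKM for the 20056. Genes of transcription factor families at or above 100 FPKM included HMGA1, POU5F1, LIN28A, YBX1, MYBL2, ATF4, LIN28B and PRDM14. The cold-shock proteins LIN28A, YBX1 and LIN28B are best known for binding RNA. YBX1 was at 313 ± 0.917, MYBL2, a regulator of cell cycle genes, at 232 ± 9.47 and ATF4, the factor of the amino acid response, at 164 ± 1.68 FPKM. Families differed in the share of members at or above 1 FPKM, which was 52.9% for all nuclear protein-coding genes. C2H2 zinc fingers had 480 of 660 at or above 1 FPKM (72.7%) with a median of 2.44 FPKM, and homeobox genes 33 of 197 (16.8%) with a median of 0.0497 FPKM. Of 39 HOX genes only HOXB2, at 22.1 ± 0.770, and HOXB3, at 1.02 ± 0.212 FPKM, reached 1 FPKM. HOXB3 was under it when replicate 1 or replicate 2 was left out, and HOXB1, at 0.679, 0.971 and 1.22 FPKM, was above it without replicate 1. Of 16 POU genes POU5F1 was alone above 10 FPKM, with POU2F1 next at 8.75 ± 0.124 FPKM.

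The pathways that the medium acts on had unequal levels from step to step. For LIF, the receptor LIFR was at 1.45, 1.50 and 1.67 FPKM and its partner IL6ST at 7.73, 7.38 and 8.27 FPKM. The kinase JAK1 was at 5.25 ± 0.159 and STAT3 at 19.5 ± 0.365 FPKM. The target kinases PIM1 and PIM3 were at 62.5 ± 1.52 and 38.5 ± 0.825 FPKM, and the feedback inhibitor SOCS3 was at 1.9 ± 0.338 FPKM. LIF itself was at 0.322 FPKM.

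In the FGF and ERK pathway the ligand FGF4 was at 184 ± 4.76 and the receptors FGFR4, FGFR3 and FGFR1 at 75.2 ± 3.45, 52.0 ± 3.55 and 16.1 ± 0.781 FPKM. The kinases MAP2K1 and MAP2K2, the targets of PD0325901, were at 10.6 ± 0.0102 and 14.4 ± 0.254 FPKM. The genes that ERK is known to induce were low: EGR1, ETV5, SPRY4 and DUSP4 were at 0.222, 0.175, 0.0797 and 0.0516 FPKM. ETV4 at 18.6 ± 1.20 and SPRY2 at 9.14 ± 0.959 FPKM were exceptions. In all, 18 of 24 genes of the list were at or above 1 FPKM.

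Of 20 WNT pathway genes 17 reached 1 FPKM. The receptor FZD5 was at 142, 145 and 142 FPKM, far above FZD7 at 1.9 ± 0.174 FPKM, and CTNNB1, the signal transducer, at 43.3 ± 0.245 FPKM. The tankyrases TNKS2 and TNKS, bound by XAV939, were at 21.1 ± 0.747 and 6.05 ± 0.0152 FPKM. The targets AXIN2, SP5 and LEF1 were at 12.5, 1.07 and 0.160 FPKM. Among protein kinase C genes PRKCI led at 21.96 ± 0.313, then PRKCD at 5.67 and PRKCZ at 4.41 FPKM, and PRKCA, PRKCB and PRKCE were at 0.954, 0.403 and 0.0473 FPKM.

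The NODAL and BMP list had 20 of 22 genes at or above 1 FPKM. Beside TDGF1, GDF3 had 151, 143 and 158 FPKM, LEFTY2, a NODAL inhibitor, 65.4, 65.7 and 65.6, NODAL 30.2, 27.6 and 23.8, and LEFTY1 11.2, 12.5 and 9.79 FPKM. The mediators SMAD2 and SMAD3 were at 2.60 and 1.79 FPKM. ID1, a BMP target, was at 42.2 ± 1.00, well above ID2 and ID3 at 1.08 and 0.453 FPKM.

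The study is about O-GlcNAc, a sugar placed on nuclear and cytosolic proteins by OGT and removed by OGA, and about the acetyltransferase EP300. In the control cells OGT was at 57.0, 56.5 and 59.0 FPKM, OGA at 40.1, 41.0 and 40.5 FPKM and EP300 at 23.1, 23.6 and 22.97 FPKM. Its paralog CREBBP was at 9.65, 10.1 and 9.83 FPKM. GFPT1, the entry enzyme of the hexosamine pathway that makes the sugar donor, had the highest level at 117 ± 4.95 FPKM, above its paralog GFPT2 at 16.1 ± 0.238 FPKM. The later enzymes GNPNAT1, UAP1 and PGM3 were at 21.5, 13.7 and 4.20 FPKM. All 9 genes were at or above 1 FPKM, and no neighbouring pair in their order had overlapping ranges.

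DNA methylation genes ranged from DNMT3B and DNMT3L to DNMT1, the maintenance enzyme, at 10.8 ± 0.272, its partner UHRF1 at 14.7 ± 0.561 and DNMT3A at 8.90 ± 0.252 FPKM. Of the TET dioxygenases TET1 was at 48.9 ± 1.13, TET3 at 3.90 ± 0.246 and TET2 at 0.290 ± 0.0714 FPKM, and ZFP57, which guards imprints, at 37.4 ± 1.37 FPKM. All 12 Polycomb repressive complex 2 genes were at or above 1 FPKM. Its cofactor JARID2 was highest at 39.0 ± 2.80, the subunits SUZ12, EZH2 and EED were at 18.3, 8.51 and 2.08, and EZH1 was at 3.81 FPKM.

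Cell cycle genes had a median of 21.1 FPKM, and 21 of 25 were at or above 1 FPKM. PCNA, the replication clamp, was at 192 ± 10.2, the mitotic cyclin CCNB1 at 97.0 ± 2.70 and TOP2A at 84.6 ± 0.663 FPKM. Cyclin genes for G1 were uneven, with CCNE1 at 21.1, CCND1 at 16.6, CCND3 at 11.5 and CCND2 at 0.579 FPKM. The inhibitors of cyclin-dependent kinases were uneven too, with CDKN1C at 11.0 and CDKN1B at 6.51 FPKM, and CDKN1A and CDKN2A at 0.403 and 0.0730 FPKM.

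Glycolysis genes included 7 of 20 above 100 FPKM, among them TPI1 at 318 ± 3.86, PGAM1 at 272 ± 7.82, PGK1 at 208 ± 2.51 and LDHA at 152 ± 4.18 FPKM. LDHB was at 8.97 ± 0.876 FPKM. ALDOA was at 0.900 ± 0.135 FPKM, and it shares its strand with an overlapping gene model, so its level is uncertain. All 32 nuclear-encoded respiratory chain genes were at or above 1 FPKM, with a median of 46.2 FPKM and ATP5F1B at the top at 412 ± 6.83 FPKM. All 23 genes of translation and the cytoskeleton passed too, with a median of 236 FPKM, and the lowest was B2M, the light chain of class I HLA, at 6.57 ± 0.133 FPKM. HLA-E and HLA-C were at 33.5 ± 1.66 and 1.87 ± 0.200 FPKM.

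On the X chromosome 396 of 859 protein-coding genes (46.1%) reached 1 FPKM, against 52.9% of all nuclear protein-coding genes. The median over those 396 alone was 7.77 FPKM, against 6.88 FPKM for autosomal genes at or above 1 FPKM. XIST, the RNA that coats an X chromosome, was at 9.01, 9.22 and 8.95 FPKM. FTX was at 1.72 ± 0.0740, FIRRE at 1.10 ± 0.134 and JPX at 0.567 ± 0.0919 FPKM. XACT, described as a coat of the active X in human pluripotent cells, was at 0.126 ± 0.0160, and TSIX at 0.0102 ± 0.00250 FPKM. The ranges of all neighbouring pairs were apart. By chromosome, the median of protein-coding genes at or above 1 FPKM ran from 5.27 FPKM on chromosome 15 to 9.06 FPKM on chromosome 20.

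The 3 libraries lay close together. Over the 12924 genes at or above 1 FPKM, the median SD of log2(FPKM + 1) was 0.070, and between pairs of libraries Pearson's r across genes was 0.984 to 0.986 and Spearman's rho 0.978 to 0.980. A difference of at least 1 on that scale was seen for 159 to 183 genes per pair. The chi-square per degree of freedom of the reads was 2.09 to 3.07 per pair, so no pair was a library deposited again. Genes with at least 20 and under 200 reads in the pair gave 1.84 to 1.86, and those from 2000 reads 4.26 to 10.7. Whether both reads of a pair were counted is not known, and counting both would raise the value that counting error gives, so an excess is not shown for genes with few reads.

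**Figure D5:**
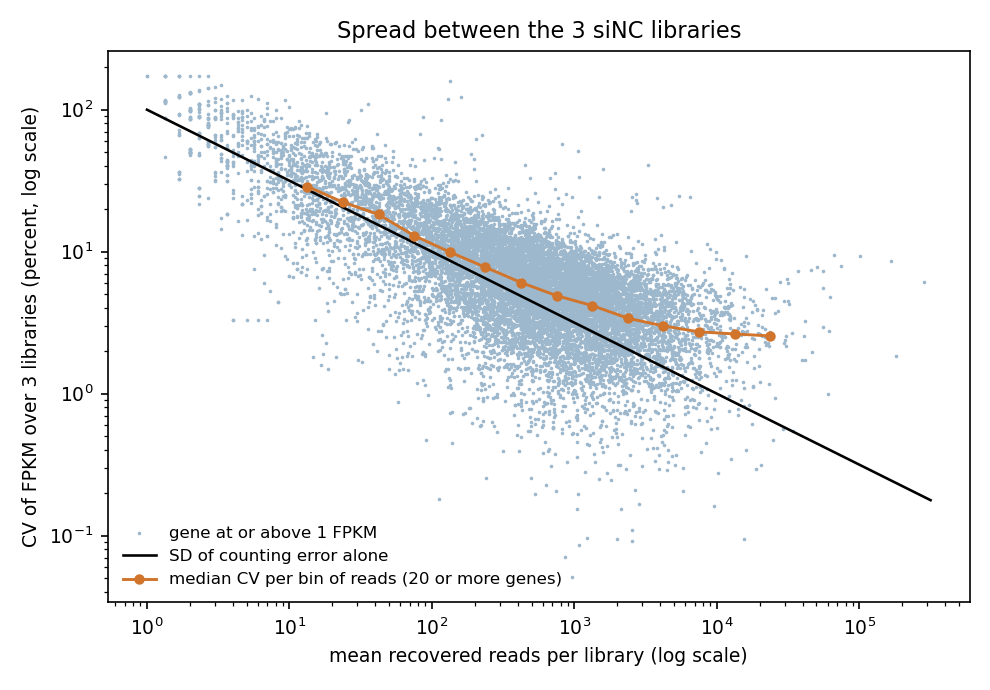
CV of FPKM over the 3 siNC libraries (percent, log scale) against the mean number of recovered reads (log scale) for genes at or above 1 FPKM, with the SD expected from counting independent reads as a black line and the median CV in bins of reads in orange. The median leaves the line as reads rise and flattens in the highest bins.

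The spread fell with level up to 1000 FPKM. The median CV was 12.98% for the 2582 genes at 1 to 2 FPKM, 5.22% for 2713 at 5 to 10 FPKM and 3.22% for 264 at 100 to 1000 FPKM. For the 14 genes from 1000 FPKM, 12 of them mitochondrial, it was higher at 7.31%. Over the 4240 genes at or above 10 FPKM the median was 3.95%, and 67 genes were over 20%. Of those 67, 47 were pseudogenes or had a listed length under 300 bases, and their median was 146 reads against 1743 over all 4240. The 10 genes with the highest CV were SNORD6, RPL41P1, MT-TH, RPS27P4, SNORD113-3, SNRPGP15, RNU6-850P, MIR3939, MTATP6P1 and MT-TL1, from 76.5% down to 40.04%. MTATP6P1, a copy of mitochondrial sequence in the nuclear genome, was at 210, 207 and 403 FPKM. The 10 with the lowest CV, from 0.0916% to 0.206%, were SRP68, MCL1, ERLIN2, MAP2K1, UBE2H, CIAO1, CDH1, ESRG, MAD2L1BP and CELF1. MCL1, a survival factor of the BCL2 family, was at 141, 141 and 141 FPKM and E-cadherin (CDH1) at 88.8, 89.0 and 88.9 FPKM. These 10 were picked as the lowest of 4240 genes, and their place is no measure of how steady each gene is.

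Replicates 2 and 3 stood a little apart from each other in some groups of genes. Replicate 3 held the highest value for 1749 and the lowest for 1552 of the 4240 genes at or above 10 FPKM. Replicate 2 held the highest for 1349 and the lowest for 1644. Replicate 3 was highest for 59 of 77 ribosomal protein genes at that level. Their median log2 deviation from the mean of the 3 libraries was 0.06 in replicate 3, -0.05 in replicate 2 and -0.01 in replicate 1. RPS27 was at 133, 121 and 192 FPKM and RPL39 at 91.0, 84.1 and 129 FPKM. All 8 metallothioneins at or above 1 FPKM, which bind zinc and copper, were also highest in replicate 3, and their family summed to 621, 602 and 851 FPKM. MT1G was at 283, 273 and 391 FPKM and MT2A at 58.4, 58.8 and 78.3 FPKM. MT1X, at 19.6, 21.7 and 21.8 FPKM, and MT1F, at 16.3, 16.3 and 18.8 FPKM, differed least. Mitochondrial genes held 21.4%, 20.2% and 22.6% of summed FPKM in the 3 libraries. What moved these genes together was not tested.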

How the data were processed

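RNA from H9 cells was poly(A)-selected, made into libraries with dUTP strand marking and molecular identifiers, and sequenced as pairs of 150 bases, per the labels' protocols. The deposited values are FPKM per gene, made by the authors. Tools in the submitters' processing notes, given there without roles, are StringTie 1.3.4d, HISAT2 2.0.4, cutadapt 1.9, edgeR, DESeq2 and UMI-tools, with the build GRCh38. Nothing states the filters, the strand used in counting or the treatment of reads with several matches, which leaves uncertain the levels of overlapping genes and of genes with near-identical copies. In the table as given 1 line was empty, and 0 columns of per-sample values were left unmapped.

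Every FPKM value was a whole multiple of the worth of 1 read (100% within 0.01), which gave the reads. The library size this implies was 1.02 to 1.03 times the reads in genes. Recovery was tested on simulated data. Listed gene lengths equalled the union of exons in GENCODE 29 for 65.2% of 58260 shared IDs, and FPKM depends on that length.

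Only the siNC group was described, with no comparison and no p-value. Values are means ± SD over 3 libraries, and log2 values use a pseudocount of 1. The members and gene lists were chosen with earlier results of these data known, and the lists support nothing independently. Named genes are the 25 highest nuclear genes, mitochondrial protein-coding genes, the 10 highest lncRNAs and 3 highest of other biotypes with a symbol, list members, the 10 highest and 10 lowest in CV (SD over mean) at or above 10 FPKM, and the 2 genes with a unique symbol, clone and locus names left out, on each side of 1 FPKM. Other named transcription factors, copies, HOX and HLA genes, RPS27, RPL39, metallothioneins, some list members and the lncRNA IDs were chosen after their values were seen. A few genes are not reported here. Promoter windows are RefSeq's. Python 3.11.15, pandas 2.3.3, numpy 2.4.6 and matplotlib 3.10.9 were used.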

Additional observations from a re-analysis of the deposited data

How the results depend on the processing

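No paired analysis was possible because only the siNC group was described and no groups were compared. The count of genes at or above 1 FPKM, 12924, was 15783 at 0.5 FPKM, 10342 at 2 FPKM, 12052 in every library, 19084 after rescaling to TPM, 16246 with at least 10 reads in every library and 12904 to 12963 with a library left out, all within 1.5 times. By reads the protein-coding share was 97.0%, the share of the 100 highest genes 18.6% and the mitochondrial share 5.63%. Without genes under 300 bases the protein-coding share was 93.7%, and without mitochondrial genes the 100 highest held 17.6%. With a library left out these shares were 91.9% to 92.0%, 33.2% to 34.3% and 20.8% to 22.01%. The median SD of log2 values, 0.070, was 0.083 with a pseudocount of 0.1, 0.044 with 5, 0.015 with no filter, 0.058 from 5 FPKM, 0.085 as TPM and 0.051 to 0.066 with a library left out. The mean chi-square per degree of freedom, 2.53, was 3.38, 4.27 and 7.05 from 20, 200 and 2000 reads, and 2.09 to 3.07 with a library left out. The median rank of the 436 listed genes, 6109, was 5869.5 by reads, 5504 among protein-coding genes and 6056.5 to 6191 with a library left out. The highest chromosome median was 1.72 times the lowest, and 1.70 to 1.86 times with a library left out. Depth limits low genes. At 1 to 2 FPKM the SD expected from counting independent reads is 11.3% of the mean, at the median of 78.3 reads. This is not the median CV that counting would give over 3 libraries.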

Other observations

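Several genes of the naive and core lists, high and low ones, lie near each other in the genome (GRCh38). On chromosome 6, KHDC1, DPPA5, KHDC3L and OOEP follow within 73241314 to 73395133, with means of 2.45, 577, 74.0 and 6.54 FPKM. DPPA5 and KHDC3L are 8.38 kb apart. On chromosome 12, GDF3, DPPA3 and NANOG lie within 7689784 to 7799146, at 151, 291 and 44.2 FPKM, with CLEC4C and NANOGNB between the last pair. On chromosome 19, NLRP7 and NLRP2 overlap on opposite strands by 13.2 kb, at 854 and 261 FPKM. On chromosome 10, UTF1 and VENTX are 6.30 kb apart, at 190 and 29.4 FPKM. On chromosome 2, ALPP and ALPG are at 25.1 and 211 FPKM, and on chromosome 3, DPPA2 and DPPA4 at 20.2 and 217 FPKM. In each of these 6 places the ranges of adjacent genes over the 3 libraries did not overlap.

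The microRNA loci known for pluripotent cells gave few reads, in libraries that were not made for small RNA. The 46 hairpins of the chromosome 19 cluster from MIR512-1 to MIR519A2 had 18, 28 and 45 reads in replicates 1, 2 and 3, on 16 hairpins. The 4 hairpins MIR371A, MIR371B, MIR372 and MIR373, and the 5 of MIR302A to MIR302D with MIR367, were at 0 reads in all 3 libraries. MIR302CHG, the host gene of the last, was at 1.48 ± 0.204 FPKM (SD, n = 3).

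Of 92 histone genes 22 were at or above 1 FPKM, against 52.9% of all nuclear protein-coding genes. The 22 included H1-10 at 115 ± 3.04, H2AZ1 at 95.4 ± 5.33, H3-3A at 80.2 ± 4.29 and H3-3B at 78.8 ± 1.54 FPKM. H1-10, H2AZ1, H3-3A and H3-3B are replacement and variant histones, whose messages are known to be polyadenylated. H2BC12, which is not of that kind, was at 14.1 ± 2.78 FPKM. Whether polyadenylation bears on these levels was not tested. Of 400 olfactory receptor genes none reached 1 FPKM.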
